A study of Solanum lycopersicum with 6 samples.

Results

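Plant genomes carry large families of immune receptor genes, and several families of microRNAs (miRNAs, small RNAs that pair with mRNAs and lead to their cleavage or silencing) recognise sequences that many of these receptors share. In Solanaceae, such miRNAs cut the mRNAs of NB-LRR proteins, the receptors inside the cell that detect pathogen effectors, or of receptor-like proteins at the cell surface, and the cut mRNAs are often turned into secondary small RNAs that spread the repression to related receptors. miR5300, miR6022, miR6023, miR6024, miR6025, miR6026 and miR6027 belong to this layer of control and were taken here by their numbers in the names of the count table. This gave 8 entries of 137, since both arms of the miR6027 precursor are listed. The rule used names and no measured value, though earlier results of these data were known when it was set.

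The RNA came from tomato (Solanum lycopersicum) fruit harvested green. Drought plants received liquid fertilizer diluted 500-fold once a week after flowering, and control plants received the same dilution and plain water on alternating days, so that drought plants also had less fertilizer. All plants shared the greenhouse, the pots and distilled water alone between potting and flowering, and each group had 3 libraries of small RNA. Day and night were equally long for both groups (12 h each), with the temperature set to 25 °C by day and 20 °C by night. The labels state no cultivar and do not say whether libraries of the same group were made from different plants, so p-values rest on a spread that may be technical only. The table lists miRNAs alone, so the tissue is given as labelled and no receptor mRNA was analysed here.

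Totals over all listed miRNAs ran from 430732 to 468711 counts in drought libraries and from 644434 to 749332 in control libraries. Levels are given as scaled CPM, counts per 1e+06 counts of a library size corrected with the TMM method for differences in composition. The correction divided drought library 2 by 1.35, the TMM factor that differed most from those of the other libraries, and this library stands apart in several of the values below. Values from library totals alone are also given for most entries, in all or some of the libraries. They are not given for miR6025, which had few counts. In bulk fruit, fewer cells that make a miRNA and less of it per cell cannot be told apart.

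Together the 8 entries held a small part of the counts, which overlapped between the groups. They made up 2.41%, 2.89% and 2.37% of the counts in drought libraries 1 to 3, against 2.22%, 2.62% and 2.41% in control libraries 1 to 3. The mean was 2.56% ± 0.286 in drought and 2.42% ± 0.202 in control (SD, n = 3 each), with p = 0.7 in a two-sided exact permutation test that cannot go below 0.1 with 3 against 3. The difference of 0.137 percentage points became -0.0271 without drought replicate 2 and -0.0653 over TMM-scaled library sizes.

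Of the 8 entries, 6 had enough counts for the test across the whole table, and 0 of these 6 passed in edgeR's quasi-likelihood test at a Benjamini-Hochberg adjusted p of 0.05. None of the 6 had an unadjusted p under 0.05, and 0 passed in DESeq2. Over all 99 tested miRNAs 20 passed, which is 20.2% (9.09% higher and 11.1% lower in drought), and 34.3% had an unadjusted p under 0.05. The 6 log2 fold changes, drought over control, ran from -0.50 to 0.64 with a median of 0.15, beside a median of 0.16 over all tested miRNAs. Their median size without sign was 0.41, beside 0.64 over all tested miRNAs. The drought and control libraries did not overlap for 1 of the 6, miR6022, and for 37.4% of all tested miRNAs.

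**Figure D1:**
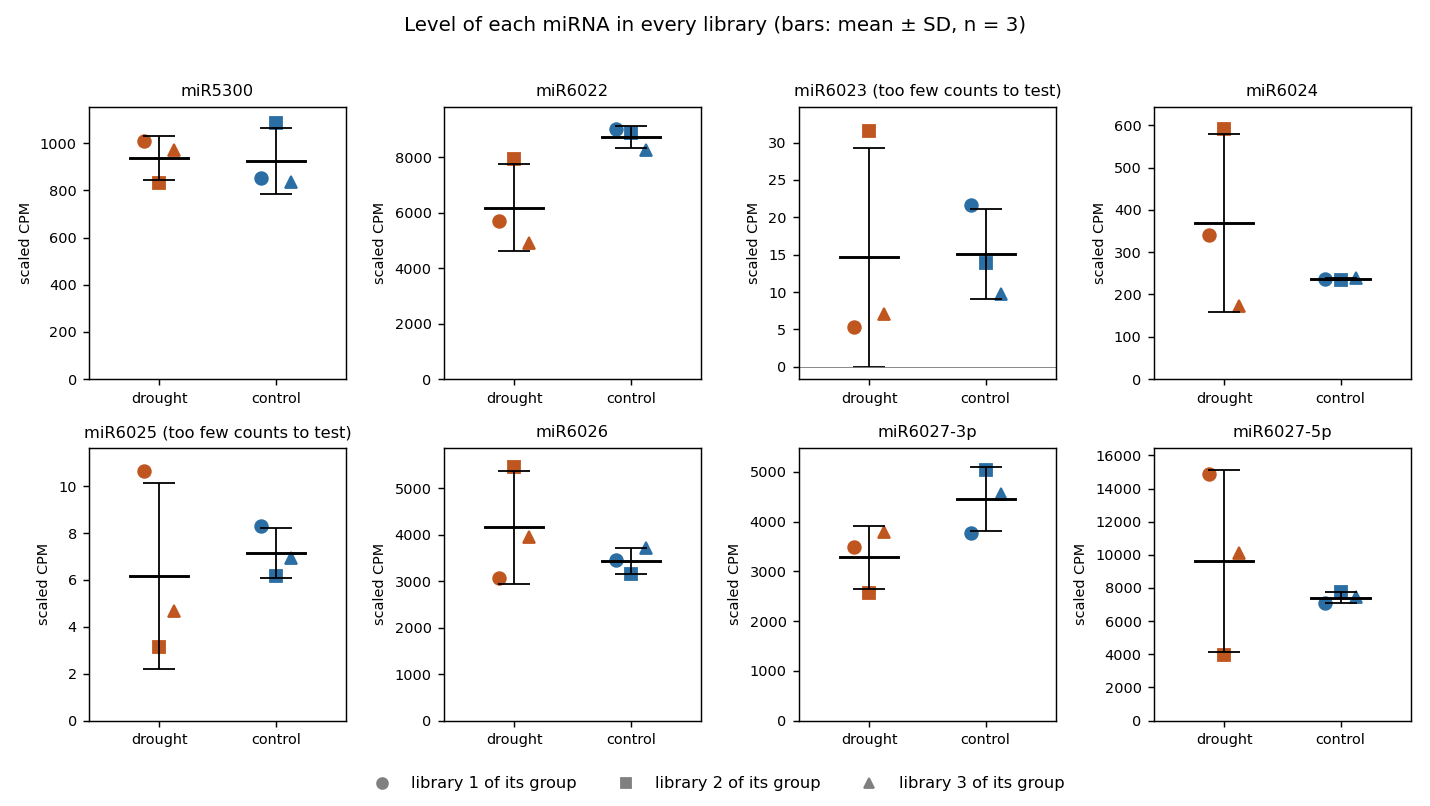
Scaled CPM of each of the 8 entries (vertical axes, from 0 where the error bars allow) in the 3 drought libraries (orange, left) and the 3 control libraries (blue, right), with lines at the mean and bars for the SD. The control points of miR6022, miR6024, miR6026 and miR6027-5p lie close together while their drought points are spread, and drought library 2 (square) is the highest drought library for miR6022, miR6023, miR6024 and miR6026 and the lowest for miR5300, miR6025 and both arms of miR6027; with library totals alone it is the highest drought library for miR5300 and the middle one for miR6027-3p.

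miR5300 had the narrowest range of the tested entries across the 6 libraries. In tomato it targets transcripts of NB-domain resistance proteins and has been linked to resistance against Fusarium wilt. It stood at 1009, 834 and 970 scaled CPM in drought libraries 1 to 3, against 855, 1086 and 837 in control libraries 1 to 3. Drought and control libraries overlapped. The mean was 938 ± 92.2 in drought and 926 ± 139 in control (SD, n = 3 each), or 0.018 ± 0.33 as log2 fold change (SE; 95% interval -0.72 to 0.76; edgeR adjusted p = 0.968). Over the alternative settings the log2 fold change stayed between -0.0579 and 0.25, so its sign was not fixed. The coefficient of variation (CV, the SD as a percentage of the mean) was 9.83% in drought, the 10th lowest of the 99 tested miRNAs, and 15.0% in control, the 18th lowest. Counting error alone would give 4.76% in drought and 4.06% in control at these counts. With library totals alone the CV of miR5300 was 13.9% in drought, the 8th lowest, and 19.4% in control, the 31st lowest.

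In Solanaceae both miR6022 and miR6023 have been assigned targets among mRNAs of receptor-like proteins of the Cf-9 type, which sense fungal effectors at the surface of tomato cells. miR6022 is an abundant entry and was lower in each drought library than in any control library on the TMM scale. It stood at 5698, 7944 and 4901 scaled CPM in drought libraries 1 to 3, against 9033, 8894 and 8275 in control libraries 1 to 3. The control libraries lay within 1.09-fold of each other, while the drought libraries spanned 1.62-fold with library 2 nearest to control. The mean was 6181 ± 1578 in drought and 8734 ± 404 in control (SD, n = 3 each), or -0.50 ± 0.30 as log2 fold change, which missed the threshold (SE; 95% interval -1.16 to 0.16; edgeR adjusted p = 0.265).

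The separation of the groups in miR6022 was lost with another scaling, through drought library 2. With library totals alone, drought library 2 held 10734 CPM of it, above the 8210, 8921 and 7968 CPM of control libraries 1 to 3, while drought libraries 1 and 3 held 4831 and 4866 CPM. With drought replicate 2 left out the log2 fold change of miR6022 was -0.87 ± 0.37 and passed (edgeR adjusted p = 0.0493), in a fit in which 41 of 101 tested miRNAs passed. Over all 12 alternative settings its log2 fold change was negative, from -0.87 to -0.26, with an adjusted p from 0.0493 to 0.698.

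miR6023 was rare in this fruit. Its counts were 2, 20 and 3 in drought libraries 1 to 3, against 13, 9 and 7 in control libraries 1 to 3. Of the 25 drought counts, 20 were in library 2, so the drought libraries lay on both sides of the control libraries. The summed scaled counts of drought over control gave a ratio of 1.18 (exact 95% interval 0.664 to 2.09, counting error only). Without drought replicate 2 the ratio was 0.423 (0.128 to 1.10). Relative to library totals it stood at 42.7 CPM in drought library 2 (exact 95% binomial interval 26.1 to 65.9) and at 4.52 CPM in drought library 1 (0.547 to 16.3).

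miR6024, miR6026 and miR6027 have been assigned targets among mRNAs of NB-LRR proteins, and miR6026 in tomato also targets a Dicer-like gene of the DCL2 type, whose product makes secondary small RNAs. For miR6027 this is stated by family name, and which of its arms pairs with such mRNAs was not examined here. miR6024 had nearly the same level in all control libraries and a wide range in drought. It stood at 341, 592 and 173 scaled CPM in drought libraries 1 to 3, against 236, 235 and 240 in control libraries 1 to 3. Drought libraries 1 and 2 were above and drought library 3 below the whole control range. The mean was 369 ± 211 in drought and 237 ± 2.42 in control (SD, n = 3 each), or 0.64 ± 0.48 as log2 fold change (SE; 95% interval -0.43 to 1.71; edgeR adjusted p = 0.335). Without drought replicate 2 it was -0.0297, and without drought replicate 3 it was 1.04 with an unadjusted p of 0.0482 (edgeR adjusted p = 0.147). With library totals alone it stood at 289, 800 and 172 CPM in drought libraries 1 to 3, against 215, 236 and 231 CPM in control libraries 1 to 3, again with libraries 1 and 2 above and library 3 below the control range.

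miR6026 stood at 3070, 5465 and 3944 scaled CPM in drought libraries 1 to 3, against 3451, 3150 and 3717 in control libraries 1 to 3. Drought library 1 lay just under and the other drought libraries above the control range, library 2 farthest. The mean was 4160 ± 1212 in drought and 3439 ± 284 in control (SD, n = 3 each), or 0.27 ± 0.31 as log2 fold change (SE; 95% interval -0.42 to 0.96; edgeR adjusted p = 0.515). Leaving out drought replicate 2 turned this log2 fold change to -0.13. Relative to library totals miR6026 stood at 2603, 7384 and 3917 CPM in drought libraries 1 to 3, against 3136, 3159 and 3579 CPM in control libraries 1 to 3.

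miR6025 was the rarest of the 8 entries. Its counts were 4, 2 and 2 in drought libraries 1 to 3, against 5, 4 and 5 in control libraries 1 to 3. The libraries of both groups overlapped. The ratio of summed scaled counts, drought over control, was 0.783 (exact 95% interval 0.285 to 2.0, counting error only). A difference of that size was not detectable at this depth. In the gene table of assembly SLM_r2.1, which holds 6 of the 7 precursors, MIR6025 and MIR5300 lie beside each other with 1 gene between them, while miR5300 had 379 or more counts in every library. That gene table was used for names and neighbours only, since the build behind the counts is unknown here.

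Both arms of the miR6027 precursor were abundant, and in the mean over libraries the 5p arm was the highest of the 8 entries in scaled CPM. Adapter ligation favours some RNA ends over others, so this order is one of recorded counts and not of molecules. The 5p arm stood at 14855, 3933 and 10098 scaled CPM in drought libraries 1 to 3, against 7076, 7754 and 7431 in control libraries 1 to 3. Drought libraries 1 and 3 were above and drought library 2 below every control library. The mean was 9629 ± 5476 in drought and 7420 ± 339 in control (SD, n = 3 each), or 0.38 ± 0.44 as log2 fold change (SE; 95% interval -0.60 to 1.35; edgeR adjusted p = 0.526). It was -0.0407 without drought replicate 1 and 0.60 without drought replicate 2. With library totals alone the 5p arm stood at 12595, 5315 and 10027 CPM in drought libraries 1 to 3, against 6431, 7777 and 7156 CPM in control libraries 1 to 3, so drought library 2 was again below the control range.

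The 3p arm of miR6027 spanned 1.48-fold over the drought libraries, against 3.78-fold for the 5p arm. It stood at 3483, 2563 and 3795 scaled CPM in drought libraries 1 to 3, against 3763, 5031 and 4558 in control libraries 1 to 3. Drought library 3 lay just above the lowest control library, and the other drought libraries lay under the control range. Scaled by library totals alone it stood at 2953, 3463 and 3768 CPM in drought libraries 1 to 3, against 3420, 5046 and 4389 CPM in control libraries 1 to 3, and drought library 1 was then the only drought library under the control range. The mean was 3280 ± 641 in drought and 4451 ± 641 in control (SD, n = 3 each), or -0.44 ± 0.30 as log2 fold change (SE; 95% interval -1.10 to 0.22; edgeR adjusted p = 0.292). The value was negative in all 12 alternative settings, from -0.55 to -0.21, and passed in none of them (adjusted p from 0.260 to 0.698).

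**Figure D2:**
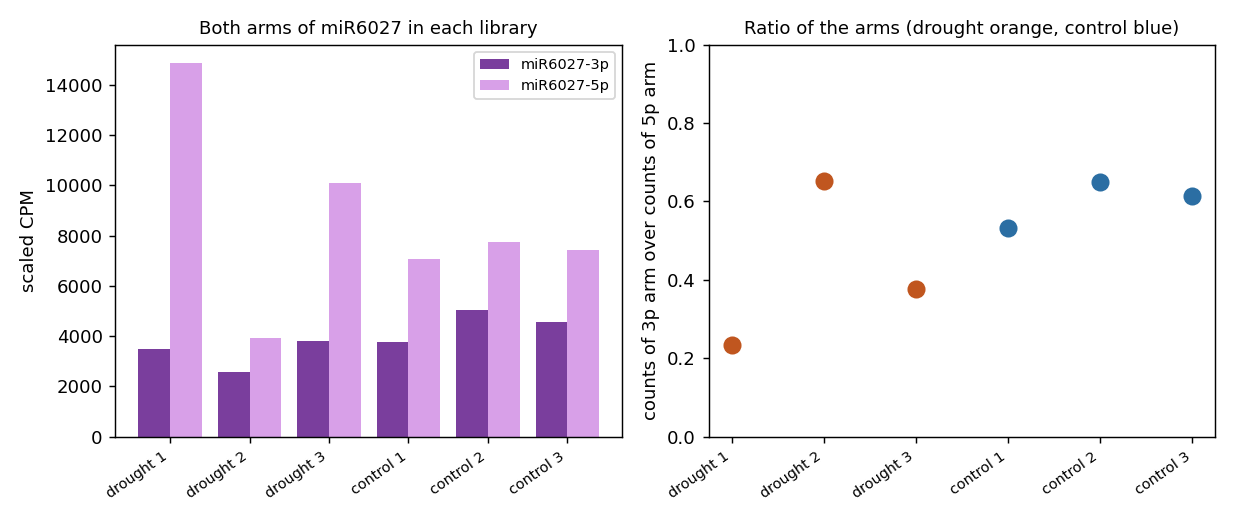
Left, scaled CPM of the 3p (dark) and 5p (light) arms of miR6027 in each library. Right, counts of the 3p arm divided by counts of the 5p arm, a ratio that no scaling can change, with drought libraries in orange and control libraries in blue. The ratio is 0.234 in drought library 1 and 0.376 in drought library 3, and 0.652 in drought library 2, next to the 0.532 to 0.649 of the control libraries.

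Since both arms come from the same precursor and the same library, their ratio needs no scaling. There were 0.234, 0.652 and 0.376 counts of the 3p arm for each count of the 5p arm in drought libraries 1 to 3, against 0.532, 0.649 and 0.613 in control libraries 1 to 3. Drought libraries 1 and 3 were below every control library, and drought library 2 was just above them. The mean log2 ratio, with 0.5 counts added to each arm, was -1.37 ± 0.74 in drought and -0.75 ± 0.15 in control (SD, n = 3 each), a difference of -0.63 (exact two-sided permutation p = 0.4, where 0.1 is the smallest possible). The difference was -1.01 without drought replicate 2 and -0.27 without drought replicate 1. Among the 19 precursors with both arms tested, miR6027 had the narrowest range of log2 ratios over the control libraries, 0.29 against a median of 0.80, while its range of 1.47 over the drought libraries was also the median of the 19.

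**Figure D3:**
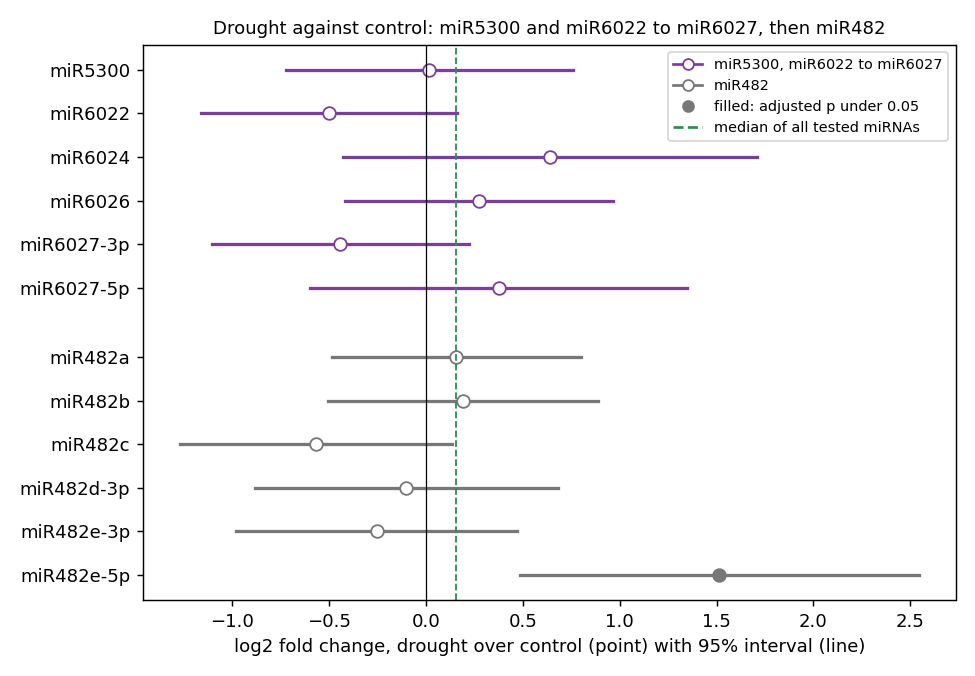
Log2 fold change of drought over control (horizontal axis) with its 95% interval for the 6 tested entries from miR5300 to miR6027-5p (purple) and for the 6 tested miR482 entries (grey); filled points passed an adjusted p of 0.05 in edgeR. All purple intervals include 0, and the 1 filled point is miR482e-5p at 1.51.

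Of the other families listed as regulators of NB-LRR mRNAs, miR482 was the 1 with entries in the table. Of its 7 entries 6 were tested, 1 rose and 0 fell (edgeR adjusted p under 0.05), and the median log2 fold change was 0.03. Over all 99 tested miRNAs 20 passed, or 20.2%, so 1 of 6 does not set miR482 apart. The rise was miR482e-5p, the arm with fewer counts of its precursor, which stood at 2552 ± 1080 scaled CPM in drought and 893 ± 376 in control (SD, n = 3 each), or 1.51 ± 0.46 as log2 fold change (SE; edgeR adjusted p = 0.0428). It did not pass without drought replicate 1 (edgeR adjusted p = 0.0680), drought replicate 3 (0.0969), control replicate 2 (0.108) or control replicate 3 (0.125), where its log2 fold change was 1.33, 1.42, 1.29 and 1.49 in that order. The most abundant, miR482e-3p, stood at 26359 ± 5489 scaled CPM in drought and 31437 ± 7778 in control, or -0.25 ± 0.32 as log2 fold change (SE; edgeR adjusted p = 0.566).

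The spread between libraries of the same group was small in control for several entries. For 4 of the 6 tested entries the control libraries had a CV under 10%, namely 1.02% for miR6024, 4.57% for miR6027-5p, 4.62% for miR6022 and 8.25% for miR6026. Over all tested miRNAs 10 of 99 were that steady in control, and 0 of the 6 tested miR482 entries. In drought libraries the CV of the same entries was 57.2% for miR6024, 56.9% for miR6027-5p, 25.5% for miR6022 and 29.1% for miR6026.

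Across the 6 tested entries the median CV was 27.3% in drought and 6.44% in control. Over all 99 tested miRNAs the corresponding medians were 39.1% in drought and 27.8% in control, and over the 6 miR482 entries 19.2% in drought and 24.6% in control. The CV was higher in drought for 5 of the 6 entries, miR5300 being the exception, and for 62 of the 99 tested miRNAs. With library totals alone the median CV was 44.8% in drought and 8.52% in control for the 6 entries, 35.2% in drought and 25.6% in control for all tested miRNAs, and 24.9% in drought and 20.8% in control for miR482. The scaling thus decided whether the 6 entries lay below or above all tested miRNAs in drought, and which group had the higher median for miR482. With library totals the CV was higher in drought for 4 of the 6 entries and for 62 of the 99 tested miRNAs. The control CV of 1.02% for miR6024 is below the 8.01% that counting error alone gives on average at its counts, and it was 4.89% with library totals alone. With 3 libraries a group, a CV is a rough estimate, and the difference in spread was not tested.

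**Figure D4:**
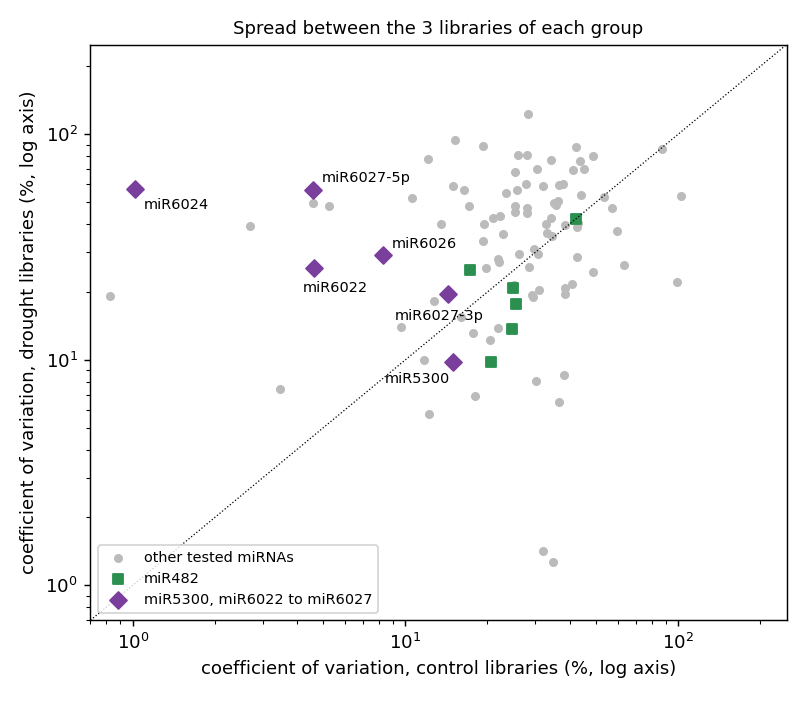
Coefficient of variation over the 3 drought libraries (vertical, log axis) against that over the 3 control libraries (horizontal, log axis) for all 99 tested miRNAs, with the 6 tested entries as purple diamonds, miR482 as green squares and others in grey; the dotted line marks equal spread. miR6024, miR6027-5p, miR6022 and miR6026 lie left of 10% in control and above 25% in drought, while miR5300 and miR6027-3p lie near the line.

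Drought library 2 was the highest or the lowest drought library for each of the 8 entries in scaled CPM. Among the 6 tested entries it was the highest for 3 and the lowest for 3. Over all 99 tested miRNAs it was the highest for 27 and the lowest for 48, so it was at 1 end for most of them. Its level divided by the mean of drought libraries 1 and 3 was 5.12 for miR6023, 2.30 for miR6024, 1.56 for miR6026 and 1.50 for miR6022 in scaled CPM. It was 0.842 for miR5300, 0.704 for miR6027-3p, 0.412 for the few counts of miR6025 and 0.315 for miR6027-5p. The median of this ratio over all tested miRNAs was 0.842, the value of miR5300 itself. miR6024 had the 9th highest and miR6027-5p the 11th lowest ratio of the 99 tested miRNAs. With library totals alone miR5300 stood at 856, 1126 and 963 CPM in drought libraries 1 to 3, so that library 2 was then the highest, and for miR6027-3p it was then the middle one. The ratios from library totals were 3.47 for miR6024, 2.27 for miR6026 and 2.21 for miR6022, beside 0.470 for miR6027-5p and a median of 1.24 over all tested miRNAs.

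The make-up of the counts varied more between drought libraries than between control libraries for the 2 most abundant entries. miR6027-5p took 52.2%, 18.4% and 42.3% of the counts of the 8 entries in drought libraries 1 to 3, against 28.9%, 29.6% and 29.6% in control libraries 1 to 3. miR6022 took 20.0%, 37.2% and 20.5% in drought libraries 1 to 3, against 37.0%, 34% and 33.0% in control libraries 1 to 3. Drought libraries 1 and 3 thus held more miR6027-5p than miR6022, whereas drought library 2 and the control libraries held more miR6022. The part taken by miR5300 was 3.84% ± 0.265 in drought and 3.66% ± 0.430 in control (SD, n = 3 each).

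The miRNAs outside these families whose levels were most like those of miR6027-5p were miR10530, miR1919a and miR390a-3p. Likeness was the root mean square difference of log2 CPM over the 6 libraries after each miRNA was centred on its own mean, and it was 0.21, 0.30 and 0.30 for them, where the median tested miRNA had 0.72. miR10530, for example, stood at 309, 83.7 and 206 scaled CPM in drought libraries 1 to 3, against 193, 231 and 166 in control libraries 1 to 3. miR390a-3p was low, from 18.9 to 47.9 scaled CPM over the 6 libraries, so counting error weighs more on its likeness. All 3 share with miR6027-5p a lowest drought value in library 2 and a highest in library 1. They were picked for likeness over these same libraries, so this sharing is no separate result. Library 2 was also the lowest drought library for 48 of all 99 tested miRNAs. Among the entries themselves miR5300 and miR6027-3p were the most alike pair at 0.27, and miR6024 and miR6027-5p the least alike at 0.99.

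The authors' deposited table gives its own comparison, by a test that its header does not name. In the authors' deposited table the log2 fold changes, drought over control, were 0.71 for miR6024, 0.37 for miR6027-5p, 0.33 for miR6026, 0.17 for miR6023 and 0.04 for miR5300. They were -0.29 for miR6025, -0.43 for miR6027-3p and -0.44 for miR6022 in the same authors' deposited table. The lowest FDR p-value among the 8 in the authors' deposited table was 0.246, for miR6024, while 32 of its 129 miRNAs with a p-value were under 0.05.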

How the data were processed

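The authors deposited 1 table of 137 mature miRNAs. Per the file headers its columns hold each library's total counts, whole numbers without normalization, and CPM values, a scaled signal that no test used here. The authors' deposited fold change is a signed score, negative where drought is lower, and their log2 fold changes and p-values are quoted only where named. Per the labels' protocols, libraries were made from 240 ng of total RNA with the NEBNext Multiplex Small RNA kit. The trimmer, the aligner, the database release and the build are likewise not given in the sources used here. How reads shared by similar miRNAs were assigned is not stated, so related entries may exchange counts.

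The test was the robust two-sided quasi-likelihood test of edgeR 4.0.16 (R 4.3.3), with treatment as the sole term, after filterByExpr (minimum count 10, minimum total 15) left 99 miRNAs, with TMM scaling and Benjamini-Hochberg adjustment over all 99. The filter left out miR6023 and miR6025 among the 8 entries. The SE is the log2 fold change over the square root of F, and 95% intervals use the fit's degrees of freedom. Scaled CPM of untested entries uses the same library sizes. Single values per library were compared by exact permutation over all 20 assignments. Low counts have exact binomial intervals, which cover counting error only. They leave out variation between libraries, and PCR copies are not marked. A count of 0 would allow up to 3 counts, 4.00 to 6.96 CPM by library. The fit was checked on simulated data, with the same variability for every miRNA and no library that stood apart in composition. The check therefore does not cover effects of drought library 2. Alternatives were RLE scaling, library totals alone, upper-quartile scaling, no filter, DESeq2 1.42.0, a replicate block, each library left out, a pseudocount of 1 for the arm ratio and another denominator for the share. No 2 libraries agreed within sampling noise (chi-square per degree of freedom 50.1 or more).

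All entries named by the rule on numbers are described, with the other NB-LRR regulators by count, the passing and the most abundant one by value, and the 3 miRNAs most like the most abundant entry. The members and lists were chosen with earlier results of these data known.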

Additional observations from a re-analysis of the deposited data

How the results depend on the processing

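With none of the 12 alternative settings except the fit without drought replicate 2 did any of the 6 tested entries pass, and there it was 1, miR6022, so that the count ran from 0 to 1 over the fits that left out 1 library. The count over all tested miRNAs, 20, was 9 to 41 when 1 library was left out and 12 with the replicate block, in which 0 of the 6 passed. Same-numbered drought and control libraries did not deviate together (correlations across miRNAs of 0.101, -0.245 and 0.0081), nor did every library correlate best with its own number, so the numbers were not taken as pairs, and the block moved the log2 fold changes of the entries to between -0.53 and 0.47. With RLE scaling and with DESeq2 miR5300 was at -0.0456. Leaving out 1 library gave log2 fold changes of -0.0579 to 0.25 for miR5300, -0.87 to -0.29 for miR6022, -0.0297 to 1.04 for miR6024, -0.13 to 0.51 for miR6026, -0.55 to -0.27 for miR6027-3p and -0.0407 to 0.60 for miR6027-5p. Drought replicate 2 set the low end for miR5300 (-0.0579), miR6022, miR6024 and miR6026, drought replicate 1 that for miR6027-5p, and without control replicate 1 miR5300 was at -0.0365. The joint share of counts differed by -0.0271 to 0.240 percentage points when 1 library was left out and by -0.0653 over TMM-scaled sizes. The log2 ratio of summed counts of miR6023 ran from -1.24 to 0.57 and that of miR6025 from -0.92 to 0.07. The cause of these changes was not tested. The difference in the log2 arm ratio of miR6027, -0.63, ran from -1.01 without drought replicate 2 to -0.27 without drought replicate 1. The counts of miR6023 and miR6025 were too few for the filter in the main fit, so depth limits what can be said of both. For miR6023 drought library 2 does so too. Without the filter all 8 entries were tested and 0 passed. There the log2 fold change was 0.18 for miR6023 (edgeR adjusted p = 0.903) and -0.25 for miR6025 (edgeR adjusted p = 0.866). The filter left 7 entries without drought replicate 1 and 7 without drought replicate 3, and 0 of them passed in either fit.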
